A study of Mus musculus with 18 samples.

Results

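Sox, T-box and Gata genes encode DNA-binding regulators of cell fate, and 33 of them are described here among 21887 coding genes: 16 Sox genes, 13 T-box genes (Tbr1 included) and 4 Gata genes. They were taken by name, by family membership, from a list drawn up with earlier results of these data known. For each gene the breadth of the histone mark H3K4me3 was measured as the number of base pairs covered by peaks within 5 kb on either side of the marked gene end, the end of the gene with more covered sequence within 1 kb. A gene was tested when at least 3 libraries had a promoter peak, that is a peak within 1 kb of that end. That left 16000 coding genes, among them all 16 Sox, 12 of the 13 T-box and all 4 Gata genes, with Tbx19 not tested.

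Prospermatogonia are the resting germ cells of the fetal testis, and here mouse cells were sorted at embryonic day 17.5 for an Oct4-GFP reporter and stored frozen. CUT&RUN, an assay in which an antibody guides a nuclease to cut out the marked chromatin, was run from 4000 nuclei per antibody. The genotypes set loss of TET1, an enzyme that oxidises methylated cytosine, beside loss of its catalysis. There were 3 groups of 3 libraries labelled as biological replicates: knockout (KO, Tet1-/-), homozygotes for the HxD allele (HxD, Tet1HxD/HxD), which alters the catalytic motif, and wild type (WT, Tet1+/+). All groups carried the Oct4-GFP reporter and the same batch label. The sources used here do not say whether a library pooled embryos, and the 9 IgG samples were not used here.

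Sox proteins bind the minor groove of DNA through an HMG box, T-box proteins bind through a T-box domain, and Gata proteins bind through zinc fingers. Most of these genes set up somatic lineages (neural, cardiac, limb, endothelial, endodermal or blood) and are switched on long before or far away from the fetal germ line. H3K4me3 marks active and poised promoters, and at developmental regulators that are silent in germ cells it often shares the promoter with the repressive mark H3K27me3. Wide H3K4me3 domains are a known feature of developmental regulators and of genes that define a cell's identity.

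The promoter bases shown here let the CpG content of genes with high and low breadth be seen side by side, because H3K4me3 and TET1 both occupy CpG-rich promoters. For each family they are those of the tested gene with the smallest p and of the one with the smallest difference in KO against WT, among genes whose annotated start is the marked end. Gata2 was the only Gata gene that met this condition and so filled both places, although its p in KO against WT was the largest of its family. Each run holds the 250 bases before the annotated start from RefSeq (GRCm38.p6, the assembly of mm10), 5′ to 3′ along the gene, with every CG in capitals. Sox14 lies at chr9:99876171-99876420 on the minus strand, Sox15 at chr11:69654787-69655036 on the plus strand, Tbx20 at chr9:24774304-24774553 on the minus strand, Tbx21 at chr11:97115332-97115581 on the minus strand and Gata2 at chr6:88193641-88193890 on the plus strand.
Sox14: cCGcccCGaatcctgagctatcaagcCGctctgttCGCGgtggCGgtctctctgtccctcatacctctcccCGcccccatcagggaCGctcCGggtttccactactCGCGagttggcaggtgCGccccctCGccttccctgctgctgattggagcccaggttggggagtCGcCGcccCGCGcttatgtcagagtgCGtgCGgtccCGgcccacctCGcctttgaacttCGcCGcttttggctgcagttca
Sox15: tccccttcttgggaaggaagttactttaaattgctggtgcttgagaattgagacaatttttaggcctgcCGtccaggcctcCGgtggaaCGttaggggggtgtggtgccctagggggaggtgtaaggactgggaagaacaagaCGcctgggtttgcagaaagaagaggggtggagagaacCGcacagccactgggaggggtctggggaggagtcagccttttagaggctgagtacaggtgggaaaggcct
Tbx20: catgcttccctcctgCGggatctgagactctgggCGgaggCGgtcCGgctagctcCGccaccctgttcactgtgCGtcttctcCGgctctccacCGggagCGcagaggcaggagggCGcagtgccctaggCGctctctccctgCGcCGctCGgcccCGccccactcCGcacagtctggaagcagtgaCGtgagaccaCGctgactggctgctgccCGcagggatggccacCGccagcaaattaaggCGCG
Tbx21: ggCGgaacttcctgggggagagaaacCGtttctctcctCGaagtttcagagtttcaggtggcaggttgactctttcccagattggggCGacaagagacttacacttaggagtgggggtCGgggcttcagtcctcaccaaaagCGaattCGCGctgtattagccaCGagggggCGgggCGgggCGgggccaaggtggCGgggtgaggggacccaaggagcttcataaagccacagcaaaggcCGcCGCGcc
Gata2: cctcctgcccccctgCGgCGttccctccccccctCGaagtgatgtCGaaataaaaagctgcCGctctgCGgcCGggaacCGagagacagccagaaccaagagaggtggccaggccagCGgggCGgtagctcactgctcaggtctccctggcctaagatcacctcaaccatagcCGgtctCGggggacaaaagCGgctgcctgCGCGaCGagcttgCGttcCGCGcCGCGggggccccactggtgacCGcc

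The CG dinucleotides in these runs number 23 for Sox14, 22 for Tbx20, 22 for Gata2, 16 for Tbx21 and 5 for Sox15, and Sox15 was also the narrowest in WT of the 32 tested genes. A promoter sequence was matched for 24 of the 33 genes, not for Sox7, Sox10, Sox17, Sox18, Tbx2, Tbx3, Tbx5, Tbx15 or Gata6. Over the 300 bases around the start these 24 held a median of 21.0 CG, against 13 in 17492 coding genes. The 12 Sox genes held 21.5, the 9 T-box genes 8.0 and the 3 Gata genes 26.0. The starts used for Sox5, Tbx4, Tbx10 and Gata3 lay outside the measured window, 835181, 10398, 6760 and 9353 bp from the marked end. The T-box sequences include that of Tbx19, which was not tested. The letters AACAAT, a short form of a Sox site, were found on either strand of 8.33% of the 24 sequences and of 9.42% of all coding sequences of that length. AGGTGT, a short form of a T-box site, was found in 12.5% and 12.8%, and AGATAA or TGATAA, short forms of a Gata site, in 8.33% and 16.2%.

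The genes of the 3 families had a larger median breadth than all tested genes in every genotype. Breadth sums separate peaks, and narrower and broader refer to that sum. In WT libraries the median number of peaks over the tested genes of the families was 3, 2.5 and 3. Their median longest peak was 1689.5, 2641 and 2968.5 bp in KO and 2879.5, 2026.5 and 2140 bp in HxD, against 2336, 2268.5 and 2443.5 bp in WT. The median of the group means was 3064.2 bp in KO, 3330.2 bp in HxD and 3642.7 bp in WT over the Sox genes, and 3737.3 bp in KO, 3450.0 bp in HxD and 4564.7 bp in WT over the T-box genes. Over the Gata genes it was 4482.8 bp in KO, 4687.5 bp in HxD and 5132.7 bp in WT, and over all 16000 tested genes 2002.0 bp in KO, 1808.5 bp in HxD and 1886.7 bp in WT. In 8 of the 9 libraries the family medians stood in the order Sox, T-box, Gata from narrow to broad. The exception was KO replicate 1, where the Gata median of 2388.5 bp lay beside the Sox median of 2376.0 bp and below the T-box median of 2499.0 bp. A promoter peak was present in all 9 libraries for 28 of the 33 genes, against 59.6% of the 21887 coding genes. The exceptions were Gata3, Sox30, Tbr1, Tbx5 and Tbx19. These counts are at the marked end, which for Tbx10 is its 3′ end. For Sox7, Sox10, Sox17, Sox18, Tbx2, Tbx3, Tbx5, Tbx15 and Gata6 no strand or annotated start was available. Whether their marked end is the 5′ end was therefore not checked. Within 5 kb of its annotated start Tbx10 had covered sequence only in WT replicate 3 (1159 bp). Gata3 had 4714 to 8932 bp within 5 kb of an annotated start 9353 bp from its marked end.

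**Figure D1:**
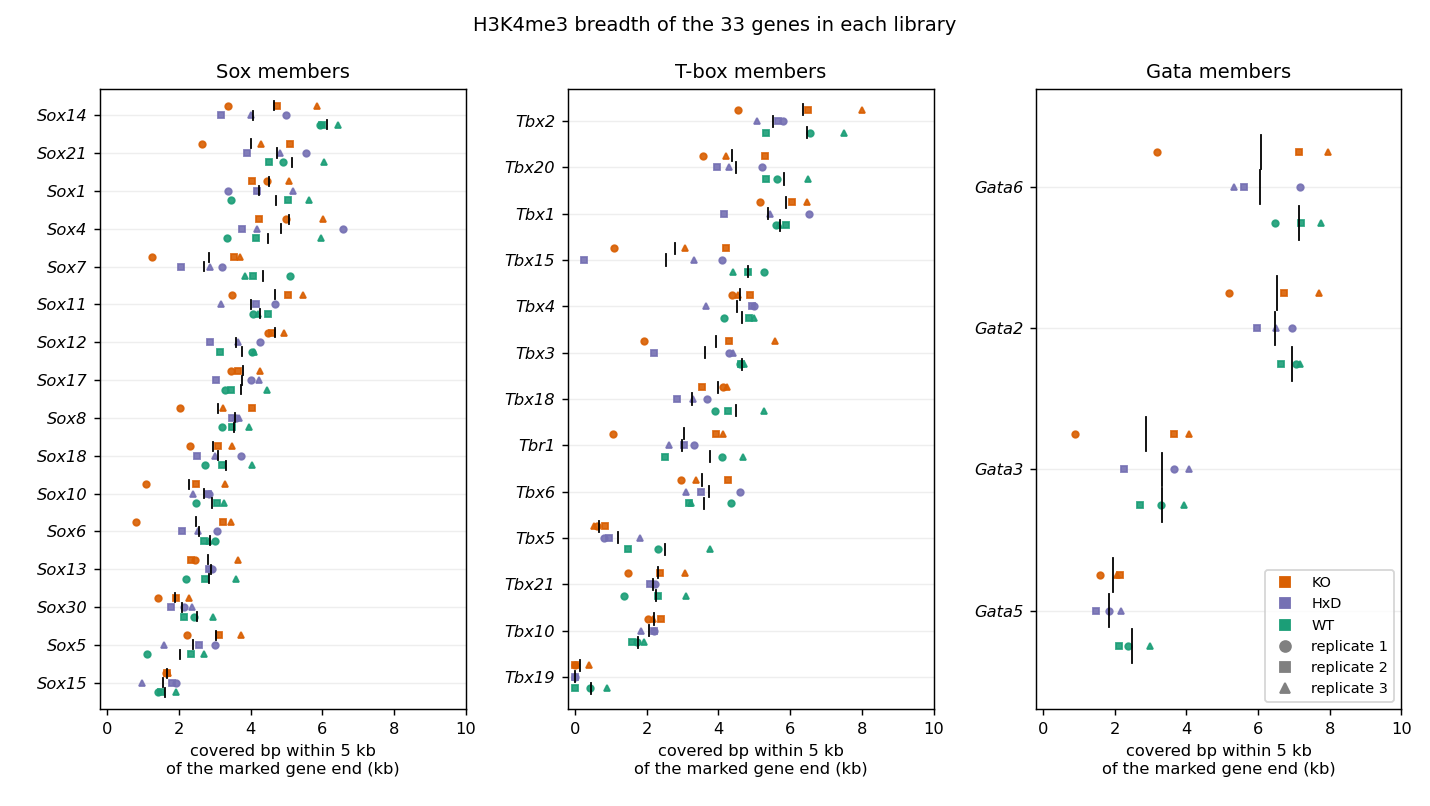
Covered base pairs (kb) within 5 kb of the marked gene end for each of the 33 genes in each of the 9 libraries; colour gives the genotype, the symbol the replicate number and the black tick the group mean. Gata6 and Gata2 are broadest in WT, Tbx19 lies near 0, and the circles of KO replicate 1 are the lowest values of many genes.

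Libraries differed in ways that bear on every value. The lists held 69901 to 80232 peaks in KO, 49624 to 67925 in HxD and 83586 to 128701 in WT, and covered 50.499 to 73.037 Mb in KO, 45.627 to 69.273 Mb in HxD and 76.583 to 108.909 Mb in WT. The list of KO replicate 1 had a median peak of 433 bp, against 641 to 793 bp in the other 8. Fixed marker lists were used as a check of the sorted cells. A promoter peak was present in at least 1 library for 9 of 10 germ cell genes (not Piwil2), 9 of 9 Sertoli cell genes, 5 of 8 Leydig or interstitial genes (not Cyp17a1, Hsd3b1 or Star) and 6 of 8 endothelial or blood genes (not Gata1 or Ptprc). Summed breadth of the germ cell list was 19978 to 29376 bp in KO, 13863 to 23057 bp in HxD and 15108 to 18747 bp in WT. Summed breadth of the Sertoli list was 19564 to 27974 bp in KO, 16670 to 26940 bp in HxD and 27476 to 31204 bp in WT, of the Leydig or interstitial list 9706 to 18223 bp in KO, 13031 to 17794 bp in HxD and 16455 to 24540 bp in WT, and of the endothelial or blood list 5724 to 10548 bp in KO, 8298 to 11169 bp in HxD and 10707 to 13430 bp in WT. The part of these differences in the results on the Sox, T-box and Gata genes was not tested. In bulk libraries fewer cells that carry a mark and less mark per cell cannot be told apart.

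The largest breadths belonged to Gata6, Gata2, Tbx2 and Sox14, whose WT means exceeded those of at least 99.6% of the tested genes. Gata6, a regulator of endoderm and heart, covered 3176, 7140 and 7962 bp in KO libraries and 7183, 5621 and 5342 bp in HxD libraries, against 6475, 7195 and 7743 bp in WT libraries. Gata2, needed for blood stem cells, covered 5203, 6727 and 7695 bp in KO and 6960, 5962 and 6492 bp in HxD, against 7048, 6627 and 7176 bp in WT. The groups overlapped at both genes in KO against WT, where KO replicate 1 was the lowest value and KO replicate 3 the highest. Tbx2, a repressor of cell cycle inhibitors, covered 4538, 6489 and 8008 bp in KO and 5791, 5650 and 5081 bp in HxD, against 6545, 5335 and 7492 bp in WT. Gata6os lies 57 bp from the marked end of Gata6 and 2610027K06Rik lies 227 bp from that of Tbx2, so a peak there can belong to either gene of the pair.

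At the other end stood Sox15, a Sox gene expressed in embryonic stem cells and muscle precursors, which covered 1641, 1664 and 1705 bp in KO and 1912, 1794 and 979 bp in HxD, against 1429, 1512 and 1913 bp in WT. Its 3 KO values lay close together and inside the WT range. Tbx19, a pituitary regulator, had a promoter peak in WT replicates 1 and 3 only. Within 5 kb it had 0, 0 and 390 bp in KO and none in HxD, against 426, 0 and 895 bp in WT.

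In KO against WT no gene of the 3 families passed limma's test at a Benjamini-Hochberg adjusted p under 0.05 (0 of 32), where the background over all tested genes was 0.00625% for narrower genes and 0% for broader genes. At an unadjusted p under 0.05, Tbx5, Sox7, Tbx15 and Tbx20 were narrower in KO (4 of 32, background 7.45%), and none was broader (0 of 32, background 6.76%). The KO values lay below every WT value at those genes and at Sox14 (5 of 32, background 9.07%) and above every WT value at Sox12 and Tbx10 (2 of 32, background 8.49%). The mean was lower in KO at 23 of 32, against a background of 46.6%. With lists of equal length, the strongest 49624 peaks of each library, it was lower at 12 of 32 (background 31.6%), and in a window of 2 kb at 16 of 32 (background 43.7%). After quantile normalisation it was lower at 23 of 32 (background 50.0%). With the annotated start in place of the marked end where one was known, it was lower at 22 genes and higher at 8 (background 45.2%). The marked end was kept for genes without a known start, among them Tbx5, Sox7 and Tbx15. At many others the start is the marked end, so most of these values repeat the main ones. Not all 32 genes passed the filter at these positions. Without KO replicate 1 the mean was lower in KO at 12 of 32 (background 33.6%), and no gene joined the 5 whose KO values all lay below WT (background 9.68%). Leaving out a mutant library can only keep or add such genes, so that the 5 remained is no check.

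Taken library by library, 21, 9 and 7 of the 32 genes lay below every WT library in KO replicates 1, 2 and 3, where the background was 44.7%, 18.2% and 16.8%, and 2, 7 and 14 lay above every WT library, where it was 13.2%, 30.2% and 46.3%. In HxD replicates 1, 2 and 3 the genes below every WT library numbered 10, 18 and 16, where the background was 18.4%, 39.8% and 41.3%, and those above numbered 8, 1 and 1, where it was 31%, 13.1% and 8.84%. In each of the 6 mutant libraries the share of genes above WT was smaller than the background.

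Tbx5, which drives formation of the forelimb and the heart, gave the smallest p. It covered 604, 830 and 535 bp in KO and 818, 947 and 1820 bp in HxD, against 2312, 1462 and 3750 bp in WT. KO and WT did not overlap, and HxD replicate 3 lay within the WT range. The means were 656.3 ± 154.3 bp in KO and 2508 ± 1156.5 bp in WT (SD, n = 3 each). The difference was -1851.7 ± 466.3 bp (SE; limma adjusted p = 0.128). In HxD the mean was 1195 ± 545.1 bp, a difference from WT of -1313 ± 466.3 bp (limma adjusted p = 0.325). WT replicate 3 was the highest library, and without it the difference was -1230.7 bp in KO and -692 bp in HxD. The gene spans bases 119796514 to 119885220 of chromosome 5 (mm10). Within 1 kb of its marked end it had 0, 414 and 535 covered bp in KO and 683, 683 and 913 bp in HxD, against 1165, 1182 and 1170 bp in WT.

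Sox14, Sox7, Tbx15 and Tbx20 were narrower in all 6 mutant libraries than in all 3 WT libraries (4 of 32, background 5.86%), and no gene was broader in all 6 (0 of 32, background 2.14%). Sox14, a neuronal regulator that occupies bases 99874106 to 99876170 of chromosome 9, covered 3378, 4727 and 5856 bp in KO and 4996, 3173 and 4013 bp in HxD, against 5931, 5998 and 6449 bp in WT. Its KO mean was 4653.7 ± 1240.6 bp and its HxD mean 4060.7 ± 912.4 bp, against 6126 ± 281.7 bp in WT (SD, n = 3 each). The WT libraries lay close together and the mutant libraries were spread out, KO replicate 3 falling just under the WT range. The difference was -1472.3 ± 694.8 bp in KO (SE; limma adjusted p = 0.355) and -2065.3 ± 694.8 bp in HxD (limma adjusted p = 0.300). Its p in HxD against WT was the smallest of the 32 genes in that comparison. Without KO replicate 1 the KO difference was -834.5 bp.

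Sox7 belongs with Sox17 and Sox18 to the SoxF group, which controls endothelial and vascular development, and spans bases 63943706 to 63950732 of chromosome 14. It covered 1235, 3532 and 3708 bp in KO and 3192, 2056 and 2879 bp in HxD, against 5091, 4071 and 3847 bp in WT. The difference was -1511.3 ± 617.3 bp in KO (SE; limma adjusted p = 0.289) and -1627.3 ± 617.3 bp in HxD (limma adjusted p = 0.355). Neither mutant group overlapped WT, but KO replicate 1 was far below the rest, and without it the KO difference was -716.3 bp. Its 2 partners overlapped between all groups: Sox17 averaged 3788.3 ± 415.4 bp in KO, 3754 ± 635.9 bp in HxD and 3736.3 ± 639.8 bp in WT, and Sox18 averaged 2948 ± 597 bp in KO, 3083 ± 627.5 bp in HxD and 3316.7 ± 665.2 bp in WT.

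Tbx15, a regulator of skeletal and dermal development at bases 99240348 to 99354260 of chromosome 3, covered 1096, 4215 and 3070 bp in KO and 4084, 242 and 3315 bp in HxD, against 5259, 4828 and 4414 bp in WT. One library in each mutant group fell under all others, KO replicate 1 and HxD replicate 2. The difference was -2040 ± 875.8 bp in KO (SE; limma adjusted p = 0.308) and -2286.7 ± 875.8 bp in HxD (limma adjusted p = 0.361). Without KO replicate 1 the KO difference was -1191.2 bp, and without HxD replicate 2 the HxD difference was -1134.2 bp. The RNA gene Gm46817 lies 307 bp from the marked end.

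Tbx20, needed for heart chamber growth and located at bases 24720812 to 24774303 of chromosome 9, covered 3575, 5309 and 4210 bp in KO and 5227, 3946 and 4307 bp in HxD, against 5636, 5322 and 6490 bp in WT. KO replicate 2 and HxD replicate 1 lay just under the lowest WT library. The difference was -1451.3 ± 629 bp in KO (SE; limma adjusted p = 0.314) and -1322.7 ± 629 bp in HxD (limma adjusted p = 0.472). With lists of equal length it turned to 434.0 bp in KO and 644.7 bp in HxD.

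Sox12 and Sox5 were the Sox genes with the smallest p among those broader in KO. Sox12, which with Sox4 and Sox11 forms the SoxC group of neural and mesenchymal regulators and lies at bases 152393611 to 152398046 of chromosome 2, covered 4477, 4596 and 4935 bp in KO and 4248, 2878 and 3644 bp in HxD, against 4032, 3137 and 4083 bp in WT. The KO libraries were above all others. The difference was 918.7 ± 500.4 bp in KO (SE; limma adjusted p = 0.419) and -160.7 ± 500.4 bp in HxD (limma adjusted p = 0.945). In KO its covered sequence lay in 1, 2 and 1 peaks and in HxD in 1, 1 and 2 peaks, against 4, 3 and 3 peaks in WT. The longest peak averaged 4544.7 bp in KO and 3079.3 bp in HxD, against 1791.7 bp in WT. Sox12 also had the smallest p in KO against HxD, where the difference was 1079.3 ± 500.4 bp (SE; limma adjusted p = 1).

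Sox4 covered 4976, 4226 and 6017 bp in KO and 6575, 3747 and 4186 bp in HxD, against 3337, 4137 and 5955 bp in WT, and the groups overlapped. Sox11 averaged 4671 ± 1043.2 bp in KO, 4003 ± 757.3 bp in HxD and 4263 ± 212.8 bp in WT (SD, n = 3 each), also with overlap. Sox5, a SoxD gene of cartilage and neurons, covered 2230, 3111 and 3742 bp in KO and 2994, 2562 and 1583 bp in HxD, against 1099, 2328 and 2689 bp in WT. The difference was 989 ± 512.5 bp in KO (SE; limma adjusted p = 0.399), and KO replicate 1 lay inside the WT range. Leaving out WT replicate 1 gave a KO difference of 519.2 bp, leaving out KO replicate 3 gave 631.8 bp, and leaving out KO replicate 1 gave 1387.8 bp. The marked end of Sox5 lies 835181 bp from an annotated start inside the gene. Tbx10 covered 2038, 2403 and 2186 bp in KO and 2197, 2194 and 1827 bp in HxD, against 1729, 1582 and 1919 bp in WT, a difference of 465.7 ± 300.7 bp in KO (SE; limma adjusted p = 0.503). The KO values all exceeded the WT values, but the marked end of Tbx10 is its 3′ end, 6760 bp from its annotated start, so this is not a value of its own promoter.

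**Figure D2:**
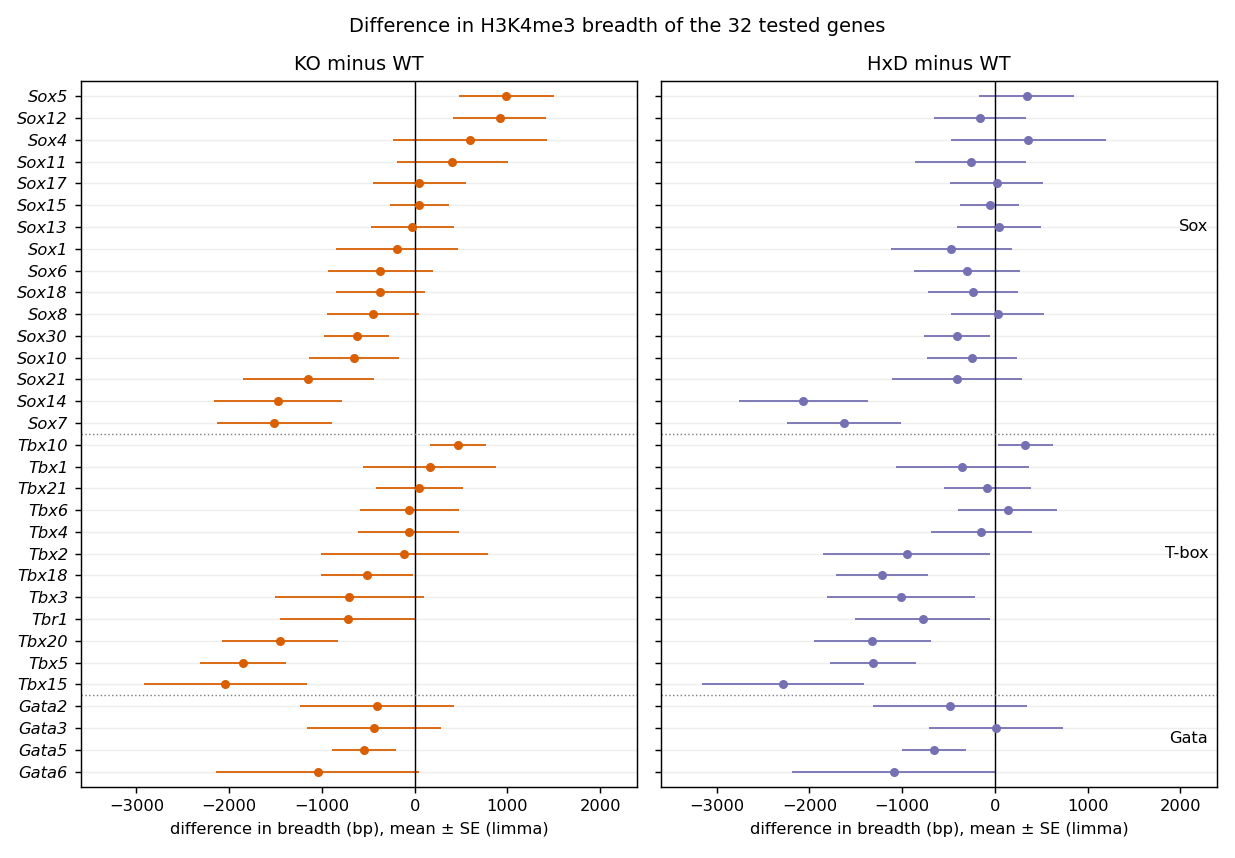
Difference in breadth (bp, limma estimate with its SE as the bar) of the 32 tested genes, KO minus WT on the left and HxD minus WT on the right, sorted within families by the KO difference; both panels use the same WT libraries. The lowest estimates in both panels are those of Tbx15 (-2040 bp in KO, -2286.7 bp in HxD), and Sox5 at 989 bp is the highest in KO.

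In HxD against WT again no gene of the 3 families passed (0 of 32, background 0% in each direction). At an unadjusted p under 0.05, Sox14, Tbx5, Sox7, Tbx15 and Tbx18 were narrower in HxD (5 of 32, background 9.04%) and none was broader (0 of 32, background 1.75%). Every HxD library lay below every WT library at Sox14, Sox7, Tbx15, Tbx18, Tbx20 and Tbx3 (6 of 32, background 13.3%) and above at none (0 of 32, background 3.62%). The mean was lower in HxD at 24 of 32, against a background of 61.1%. With lists of equal length it was lower at 12 of 32 (background 38.8%), in a window of 2 kb at 16 of 32 (background 55.9%) and after quantile normalisation at 17 of 32 (background 49.6%). With annotated starts where known and the marked end kept elsewhere, it was lower at 25 genes and higher at 5 (background 59.9%). Not all 32 genes passed the filter at these positions, and most values repeat the main ones. Without HxD replicate 2 no gene joined the 6 whose HxD values all lay below WT (background 14.8%). Leaving out a mutant library can only keep or add such genes, so that the 6 remained is no check.

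Tbx18, which shapes the sinus node, ureter and somites, covered 4123, 3549 and 4247 bp in KO and 3680, 2843 and 3287 bp in HxD, against 3914, 4267 and 5281 bp in WT. Its HxD difference was -1217.3 ± 494.6 bp (SE; limma adjusted p = 0.395), and in KO the libraries overlapped those of WT. The longest peak of Tbx18 went the other way, averaging 2655.7 bp in KO and 2404.7 bp in HxD, against 1753.7 bp in WT. Its mean number of peaks was 2.3 in KO and 2.3 in HxD, against 5.3 in WT. Tbx3, a repressor protein needed for limb, heart and mammary development, covered 1933, 4303 and 5582 bp in KO and 4291, 2188 and 4411 bp in HxD, against 4590, 4632 and 4704 bp in WT. The 3 WT values lay close together, while the KO values lay on both sides of them.

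In KO against HxD no gene passed either (0 of 32, background 0% in each direction). Sox12 was the only 1 broader in KO at an unadjusted p under 0.05 (1 of 32, background 2.69%) and the only 1 with every KO library above every HxD library (1 of 32, background 7.19%). None was narrower in KO by the same measures (0 of 32 each, backgrounds 0.219% and 0.713%). The mean was higher in KO at 21 of 32, against a background of 71.5%.

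The remaining Sox genes overlapped between KO and WT and between HxD and WT. Among the SoxB genes of the neural tube, Sox1 averaged 4518.3 ± 515.5 bp in KO, 4240.7 ± 909.3 bp in HxD and 4709 ± 1122.2 bp in WT, and Sox21 averaged 4008 ± 1243.8 bp in KO, 4747.7 ± 827 bp in HxD and 5152 ± 800.8 bp in WT (SD, n = 3 each). Of the SoxD genes, Sox6 averaged 2488.7 ± 1469 bp in KO, 2559 ± 477.3 bp in HxD and 2857 ± 150.1 bp in WT, and Sox13 averaged 2817.3 ± 723.1 bp in KO, 2882 ± 36.1 bp in HxD and 2840 ± 693.9 bp in WT. The wide SD of Sox6 in KO came with 797 bp in KO replicate 1 beside 3226 and 3443 bp in the other 2. Of the SoxE genes of neural crest and glia, Sox8 averaged 3100.7 ± 1012.8 bp in KO, 3577.3 ± 92.7 bp in HxD and 3549 ± 379.8 bp in WT, and Sox10 averaged 2279 ± 1108.3 bp in KO, 2692 ± 251.5 bp in HxD and 2935.7 ± 400.1 bp in WT. Sox30, which acts in spermatids and is the gene of the list best known from the male germ line, averaged 1879.3 ± 428.8 bp in KO, 2093.3 ± 297.1 bp in HxD and 2504.7 ± 399.6 bp in WT.

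The remaining T-box genes overlapped in both comparisons as well. Tbx1, a regulator of the pharyngeal arches, averaged 5888.7 ± 657.8 bp in KO, 5375 ± 1187.7 bp in HxD and 5724.3 ± 136.5 bp in WT (SD, n = 3 each). Tbx4, the hindlimb relative of Tbx5, averaged 4604.3 ± 248.7 bp in KO, 4522.7 ± 755.2 bp in HxD and 4668.3 ± 449 bp in WT. Its mean differed by less than the spread between libraries in both comparisons. Tbx6, which specifies paraxial mesoderm, averaged 3535.3 ± 664.7 bp in KO, 3731.3 ± 772.2 bp in HxD and 3592.7 ± 654.9 bp in WT, with the coding gene Ypel3 973 bp from its marked end. Tbx21, the regulator of type 1 T helper cells known as T-bet, averaged 2301.3 ± 805.8 bp in KO, 2168.3 ± 71.8 bp in HxD and 2251.3 ± 869.7 bp in WT. Tbr1, a regulator of cortical neurons, averaged 3045.7 ± 1720.6 bp in KO, 2987.3 ± 352.3 bp in HxD and 3766.7 ± 1130.1 bp in WT.

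Gata3 and Gata5 completed the Gata family. Gata3, a regulator of T cells and trophoblast, covered 898, 3646 and 4075 bp in KO and 3663, 2246 and 4070 bp in HxD, against 3298, 2702 and 3945 bp in WT. Around an annotated start 9353 bp from that marked end it covered 4714, 8473 and 6864 bp in KO and 7763, 5202 and 6303 bp in HxD, against 6979, 7458 and 8932 bp in WT. Gata5, a regulator of heart and gut, averaged 1939 ± 295.6 bp in KO, 1831.7 ± 340.1 bp in HxD and 2487.7 ± 446.2 bp in WT (SD, n = 3 each). All 4 Gata genes had a lower mean in KO than in WT (background 46.6%). Without KO replicate 1 the mean was lower in KO at 1 of the 4, Gata5 (background 33.6%), and higher at 3.

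Set side by side, the families gave these median differences. In KO minus WT it was -279.5 bp over the Sox genes, -313.3 bp over the T-box genes and -495.3 bp over the Gata genes, against 45.0 bp over all tested genes. In HxD minus WT it was -238.7 bp over the Sox genes, -864.7 bp over the T-box genes and -567.5 bp over the Gata genes, against -125.0 bp over all tested genes. The KO values rested on KO replicate 1: without it the medians were 78.0 bp for Sox, 250.6 bp for T-box and 337.0 bp for Gata, against 232.5 bp for all tested genes, and 12 of 32 genes had a lower mean in KO. With lists of equal length the medians also changed sign for 2 families, to 367.8 bp for Sox and 233.3 bp for T-box in KO (all tested genes 307.7 bp) and to 383.0 bp for Sox and 210.5 bp for T-box in HxD (all tested genes 155.2 bp), while Gata stayed negative at -478.3 bp in KO and -528.3 bp in HxD. In a window of 2 kb the KO medians were 51.3 bp for Sox, -33.3 bp for T-box and -29.2 bp for Gata (all tested genes 67.3 bp), and the HxD medians were 128.0 bp for Sox, -122.2 bp for T-box and -192.2 bp for Gata (all tested genes -59.8 bp). In KO the family medians were closer to 0 in this window, and the Sox median changed sign. After quantile normalisation the KO medians were -258.7 bp for Sox, -249.0 bp for T-box and -558.1 bp for Gata (all tested genes -0.5 bp). The HxD medians were then -2.4 bp for Sox, -425.3 bp for T-box and -215.6 bp for Gata (all tested genes 3.9 bp). At annotated starts, with the marked end kept where none was known, the KO medians were -190.7 bp (Sox), -635.7 bp (T-box) and -950.0 bp (Gata), against 63.3 bp over all genes. The HxD medians there were -243.7 bp (Sox), -950.0 bp (T-box) and -882.0 bp (Gata), against -111.3 bp over all genes.

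The T-box median was 2499, 4239 and 4171.5 bp in KO libraries and 4187.5, 2938.5 and 3301 bp in HxD libraries, against 4252.5, 4449.5 and 4696.5 bp in WT libraries. All 6 mutant values lay below the 3 WT values, KO replicate 2 by the least. Measured from the median of all tested genes in the same library, the T-box median stood 867, 2181.5 and 1885.5 bp higher in KO and 2114.5, 1218 and 1647 bp higher in HxD, against 2498.5, 2671.5 and 2543.5 bp higher in WT. The Sox median was 2376, 3591.5 and 3725 bp in KO and 3475.5, 2859.5 and 3098 bp in HxD, against 3252.5, 3319 and 3997.5 bp in WT, and its groups overlapped. The Gata median of 4 genes was 2388.5, 5186.5 and 5885 bp in KO and 5311.5, 3933.5 and 4706 bp in HxD, against 4886.5, 4664.5 and 5560.5 bp in WT, and its groups overlapped too.

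**Figure D3:**
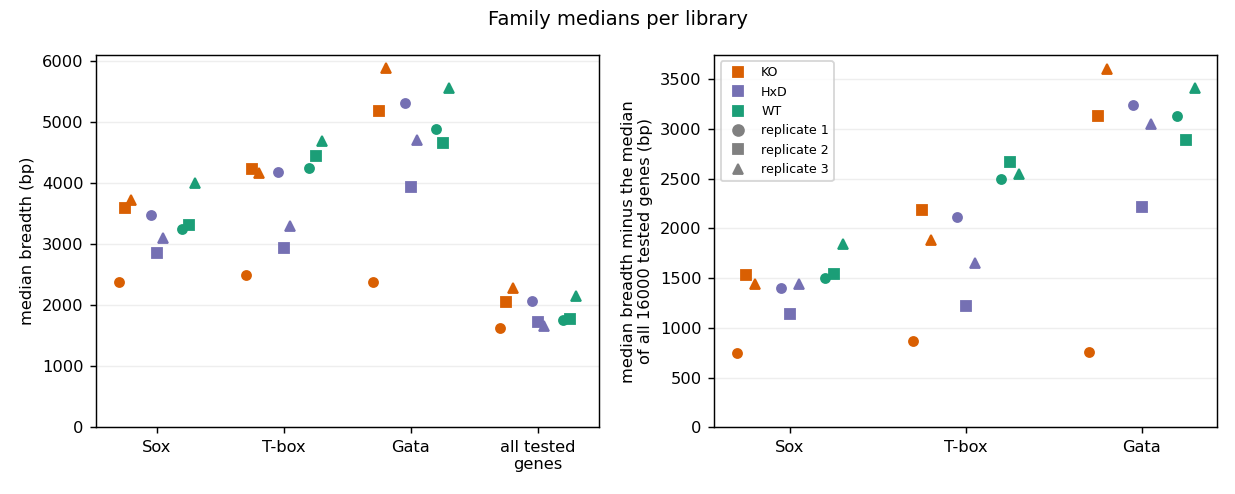
Median breadth (bp) of the tested genes of each family and of all 16000 tested genes in every library (left), and the family medians minus the median of all tested genes in the same library (right); colour gives the genotype and symbol the replicate. The T-box medians of all 6 mutant libraries lie below the 3 WT libraries in both panels, and KO replicate 1 lies lowest in each family.

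Coverage was also taken apart by distance from the marked end. Covered sequence from 1 to 5 kb had a lower mean in KO at 24 of 32 genes (background 49.3%) and in HxD at 27 of 32 (background 66.7%). Within 1 kb the mean was higher in KO at 19 of 32 (background 58.2%) and in HxD at 18 of 32 (background 49.9%). Both held together at 14 of 32 genes in KO (background 22.7%) and at 16 of 32 in HxD (background 29.4%). Gata3 and Tbx4 are in both counts, with marked ends 9353 and 10398 bp from an annotated start. Gata3 averaged only 61.3 bp within 1 kb in WT. Without KO replicate 1 the KO counts were 18 of 32 lower from 1 to 5 kb (background 41%), 22 of 32 higher within 1 kb (background 70.3%) and 13 of 32 with both (background 23.3%). Without HxD replicate 2 the HxD counts were 25, 18 and 15 of 32 (backgrounds 62.4%, 53% and 29.5%).

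At Sox7 the difference within 1 kb was -188.6 bp in KO and -114.3 bp in HxD, and from 1 to 5 kb it was -1322.7 bp in KO and -1513.0 bp in HxD. At Tbx18 coverage within 1 kb differed by 393.7 bp in KO and 434.4 bp in HxD, and from 1 to 5 kb by -908.0 bp in KO and -1651.7 bp in HxD. Tbx5 was lower in both zones, by -856.0 bp within 1 kb and -995.7 bp beyond it in KO. From 1 to 5 kb every KO library lay below every WT library at Sox14, Sox7, Tbx15 and Tbx18 (4 of 32, background 7.72%). Every HxD library did so at those genes and at Sox10, Tbx2 and Tbx3 (7 of 32, background 12.2%).

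Summed over the 32 genes, the share of covered sequence that lay beyond 1 kb was 56.2%, 61.0% and 62.0% in KO and 60.3%, 55.7% and 59.0% in HxD, against 65.5%, 62.2% and 65.5% in WT. The 6 mutant values were below the 3 WT values, KO replicate 3 by the least. By family this held for the T-box genes only. Over the Sox genes KO replicates 2 and 3 (56.0% and 56.6%) exceeded WT replicate 2 (55.5%). Over the Gata genes HxD replicate 1 (78.2%) exceeded every WT library (71.2%, 78.1% and 78.1%). Over all tested genes the share was 33.5%, 36.0% and 38.3% in KO and 35.7%, 31.2% and 32.8% in HxD, against 38.2%, 36.4% and 40.1% in WT, where KO replicate 3 lay inside the WT range. The mean number of peaks per gene of the 32 was 2.22, 2.19 and 2.28 in KO and 2.12, 2.06 and 2.25 in HxD, against 2.88, 2.59 and 2.88 in WT, in lists that were longer in WT.

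**Figure D4:**
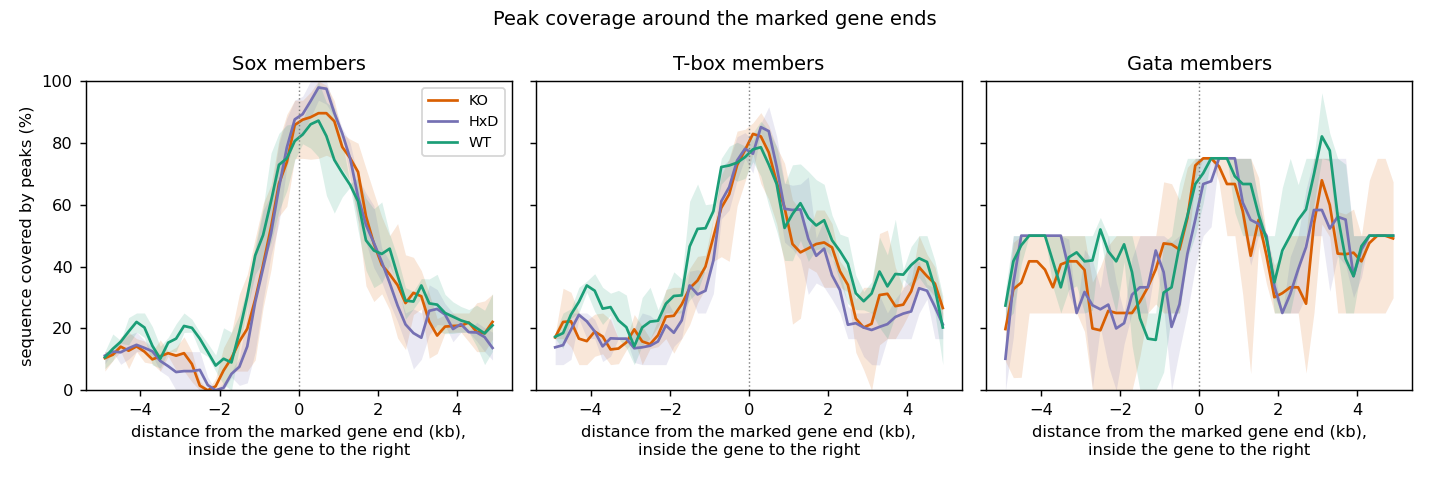
Share of the tested genes' sequence covered by peaks (%) against the distance from the marked gene end (kb, inside the gene to the right), for each family; lines are means of the 3 libraries of a genotype and bands run from the lowest to the highest library. Coverage is highest near the gene end in the Sox and T-box panels, the WT line lies above the mutant lines over much of the T-box flanks, and the bands of the Gata panel, with 4 genes, are wide and overlap.

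Of the genes of the same families outside the list, 9 of 12 were tested and none passed in KO or HxD against WT (0 of 9 each). Their median difference was 46.7 bp in KO, with 4 lower and 5 higher, and -542.3 bp in HxD, with 5 lower and 4 higher. Sox2, the pluripotency and neural regulator, averaged 5226 ± 1010.3 bp in KO and 5110 ± 1199.2 bp in HxD, against 3246.7 ± 1683.5 bp in WT (SD, n = 3 each; limma adjusted p = 0.304 in KO and 0.447 in HxD). Of 14 partner genes 12 were tested, with none called. Their median difference was -36.2 bp in KO, with 6 lower and 6 higher, and -161.7 bp in HxD, with 7 lower and 5 higher. Hand1 and Isl1 had the smallest p of the partner genes in both comparisons, and both were narrower. Hand1, a heart and trophoblast regulator, averaged 3841.7 ± 837.8 bp in KO and 3585.7 ± 614.6 bp in HxD, against 6183.7 ± 1103.1 bp in WT (limma adjusted p = 0.148 in KO and 0.177 in HxD). Isl1 averaged 3111.3 ± 566.9 bp in KO and 3067 ± 430.9 bp in HxD, against 4586.7 ± 633.5 bp in WT (limma adjusted p = 0.2 in KO and 0.279 in HxD). Tle4, a corepressor of the Groucho family, averaged 3210.3 ± 1135 bp in KO and 3650.3 ± 129.9 bp in HxD, against 1745 ± 1225.6 bp in WT (limma adjusted p = 0.295 in KO and 0.28 in HxD), and was named after its values were seen. The forkhead genes, another family of developmental regulators, had a median difference of -174.0 bp in KO and -345.8 bp in HxD over the 42 tested of 44, with 24 lower in KO and 30 lower in HxD and none called.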

How the data were processed

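H3K4me3 was profiled by CUT&RUN in 9 mouse libraries, 3 per genotype. MACS2 2.1.0, Bowtie2 2.5.0, deepTools 3.5.1, SAMtools 1.16.1, Trim Galore, bedtools 2.27.1 and the build mm10 are named per the submitters' processing notes; the sources used here do not give their roles or the control of the peak calls. The authors deposited 1 peak list per library, with a score, a fold enrichment (a linear ratio), a −log10 p-value and a −log10 q-value per peak. Only peak positions, and −log10 q for filtering within a list, entered the results. The lowest deposited −log10 q was 2.00 to 2.02. Read depth is unknown, so list length and covered sequence stand for it and no counting interval is given.

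Breadth was computed on the 19 autosomes, X and Y from RefSeq gene ends of GRCm38.p6, the assembly of mm10. Genotypes were compared in R 4.3.3 by limma 3.58.1 with a trended eBayes step, fitting covered bp of the 9 libraries together, with Benjamini-Hochberg adjustment over 16000 genes. The script was tested on simulated data. Per-library values are given for the genes with the smallest p in each direction and the broadest and narrowest in WT; Tbx3, Tbx18, Tbx19 and Gata3 were added after their values were seen. Members and lists were chosen with earlier results of these data known. Alternatives changed the peak threshold, list length, window, filter, scaling, gene end, model and libraries. The IgG samples were not used here.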

Additional observations from a re-analysis of the deposited data

How the results depend on the processing

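No gene of the 3 families was called in any comparison under any setting tried, except Tbx5 in KO against WT, where centring each library on its mean gave 1 called gene (adjusted p = 0.0214) and quantile normalisation, added after seeing the data, gave 1 (adjusted p = 0.0303); the limma adjusted p of Tbx5 ran from 0.0214 to 0.321 over all settings. Counts over all tested genes moved more. Genes narrower in KO against WT, 1 in the report, numbered 0 at −log10 q of at least 5, 52 with lists of equal length, 0 in a 2 kb window, 46 without the filter, 281 after centring, 3 at annotated starts, 0 with 2 groups in the fit, 0 with a replicate block, 241 after quantile normalisation and 0 without KO replicate 1 and HxD replicate 2 together. Genes broader in KO, 0 in the report, numbered 231, 3, 183, 1 and 151 with equal lists, without the filter, centred, at annotated starts and quantile normalised. For HxD against WT, 0 in the report, genes narrower numbered 1, 38, 43 and 74 with equal lists, without the filter, centred and quantile normalised, and genes broader 3, 12 and 23 with equal lists, centred and quantile normalised. KO against HxD gave 0 throughout. Leaving out 1 library gave 0 to 2 narrower and 0 to 3 broader in KO, and 0 to 22 narrower (22 without KO replicate 1) and 0 to 3 broader in HxD. Family medians moved to 367.8 bp (Sox, KO) and 383.0 and 210.5 bp (Sox and T-box, HxD) with equal lists and to 128.0 and -122.2 bp (Sox and T-box, HxD) in a 2 kb window, where the KO medians were 51.3, -33.3 and -29.2 bp (Sox, T-box and Gata). Leaving out 1 library, the medians ran from -490.8 to 95 bp (Sox), -797.6 to 250.6 bp (T-box) and -1014.2 to 337.0 bp (Gata) in KO and from -461.9 to 24.8 bp, -1172.2 to -402.6 bp and -742.7 to -353.8 bp in HxD. The sign turned for Tbx20 with equal lists (434.0 bp in KO, 644.7 bp in HxD), for Sox5 in HxD without WT replicate 1 (-128.8 bp; 739.3 bp without HxD replicate 3), and for Sox12 in HxD at −log10 q of at least 5 (21.7 bp), with equal lists (984.3 bp), in a 2 kb window (405.7 bp), quantile normalised (107.4 bp), without KO replicate 1 and HxD replicate 2 together (195.3 bp) and without HxD replicate 2 or WT replicate 3 alone (195.3 and 5.5 bp; lowest -489.7 bp). For Sox4 in HxD it turned to -509.8 bp without HxD replicate 1 and -210 bp without WT replicate 1 (highest 1099 bp). The causes were not tested.

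Replicate numbers did not pair the libraries: same-numbered libraries of different genotypes correlated at -0.236 to 0.08 in their deviations, and the own number correlated best in 5 of 18 cases; under the replicate block no gene of the 3 families was called (0 in each comparison). With 3 libraries a group and lists of 49624 to 128701 peaks, differences of the sizes above can be missed, and a peak list shows neither signal height between libraries nor read depth.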
